A study of Mus musculus with 12 samples.

Results

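Calcium handling and cardiac ion channels were followed through 36 genes in mouse hearts. The genes were chosen by name, with earlier results of these data known. They encode the calcium release, uptake and entry machinery of the heart muscle cell, its potassium, sodium and pacemaker channels, 2 gap junction proteins and 1 subunit of the sodium pump. Each of the 36 was found by symbol among the 55453 symbols counted, and all 36 were among the 14757 genes that passed the filter on low counts. Fkbp1b was the weakest of them, with 156 reads over all 12 libraries.

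The study sequenced messenger RNA from hearts of PDE10A wild-type (WT) and PDE10A knockout (KO) mice given vehicle or doxorubicin (DOX). PDE10A is a phosphodiesterase that degrades cAMP and cGMP, and DOX is an anthracycline cancer drug that injures the heart. The series' title and design text concern how PDE10A and DOX affect the transcriptome of the heart and whether loss of PDE10A protects it.

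There were 4 groups of 3 mice: WT vehicle (mice 1, 2 and 3), WT DOX (mice 21, 22 and 24), KO vehicle (mice veh_3393, veh_3394 and veh_3395, as titled) and KO DOX (mice 18, 19 and 20). All were labelled C57BL/6J, male or female, with no age given. DOX was a single intraperitoneal dose of 15 mg/kg, and the protocol counts 7 days. The protocol also describes the inhibitor TP-10, which no library is labelled as having received, and vehicle was DMSO in β-cyclodextrin. The tissue is labelled heart without a chamber, and how the knockout was made is not given in the sources used here. The KO vehicle mice carry numbers far from those of the other groups. The labels do not say if these mice were kept or processed separately, and such a difference cannot be told apart from genotype or treatment in any comparison that uses them.

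In a heart muscle cell each beat begins with sodium entry, after which calcium enters through L-type channels and opens ryanodine receptors on the sarcoplasmic reticulum (SR), the internal calcium store. The SR pump SERCA, held back by phospholamban, returns calcium to the store while the sodium-calcium exchanger carries it out of the cell. Potassium currents end the action potential and hold the resting voltage, HCN channels drive pacemaking, and connexins pass the impulse between cells.

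Library totals lay between 23846398 and 32921876 counts. The mitochondrial genome supplied between 19.5% and 33.6% of a library's counts, with WT vehicle mouse 2 the lowest. Pde10a itself was counted at 1.00 to 3.38 CPM (the count scaled to library size) in the WT libraries and at 8.27 to 11.9 CPM in the libraries labelled KO, so the whole-gene count goes against what a loss of the transcript would give, and the groups are named here by their labels. A count over the whole gene does not show whether an exon is missing. The 7 cardiomyocyte markers, Ryr2 among them, were all counted and summed to 60940 to 72110 CPM in WT vehicle, 46092 to 56225 in WT DOX, 58715 to 65478 in KO vehicle and 55787 to 61685 in KO DOX. The WT DOX sums lay wholly below the WT vehicle sums, and 2 of the 7 markers were called lower with DOX in WT. The list did not fall as a whole: 5 markers had a log2 change below 0 and 2, Ryr2 and Ttn, above 0. Ttn was at 3366, 2167 and 2801 CPM in WT vehicle and 3037, 3042 and 3042 CPM in WT DOX. In a tissue extract, fewer cells of a type and less RNA per cell cannot be told apart. WT vehicle mouse 2 had the lowest value of all 12 libraries for 11 of the 36 genes, WT DOX mouse 24 for 10 and WT DOX mouse 22 for 6.

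The 36 genes together took 2.06% to 2.54% of all counts in the 6 WT libraries and 2.58% to 2.71% in the 6 libraries labelled KO, with no overlap between genotypes. Atp2a2 had the most counts of the 36, at 3603321 over all libraries, and Pln followed with 1963422. The next gene, Hrc, had 356150, so this share mostly reflects Atp2a2 and Pln. Neither Atp2a2 nor Pln was called in the main fit. Per kilobase of exon, a scale on which genes can be compared, the highest mean level in WT vehicle hearts was that of Pln, the phospholamban gene, at 2021 ± 150 CPM per kb (SD, n = 3). Atp2a2, the SERCA pump, followed at 1491 ± 214 CPM per kb, then the calcium sensor S100a1 at 955 and the SR calcium-binding protein Hrc at 511 CPM per kb. The main pore genes stood far lower on this scale, with Ryr2 at 25.1, Cacna1c at 9.87 and Kcnh2 at 11.3 CPM per kb. At the low end were the pacemaker channel Hcn4 at 1.23, the connexin Gja5 at 1.14, the T-type channel Cacna1h at 0.828 and the ryanodine receptor partner Fkbp1b at 0.577 CPM per kb.

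**Figure D1:**
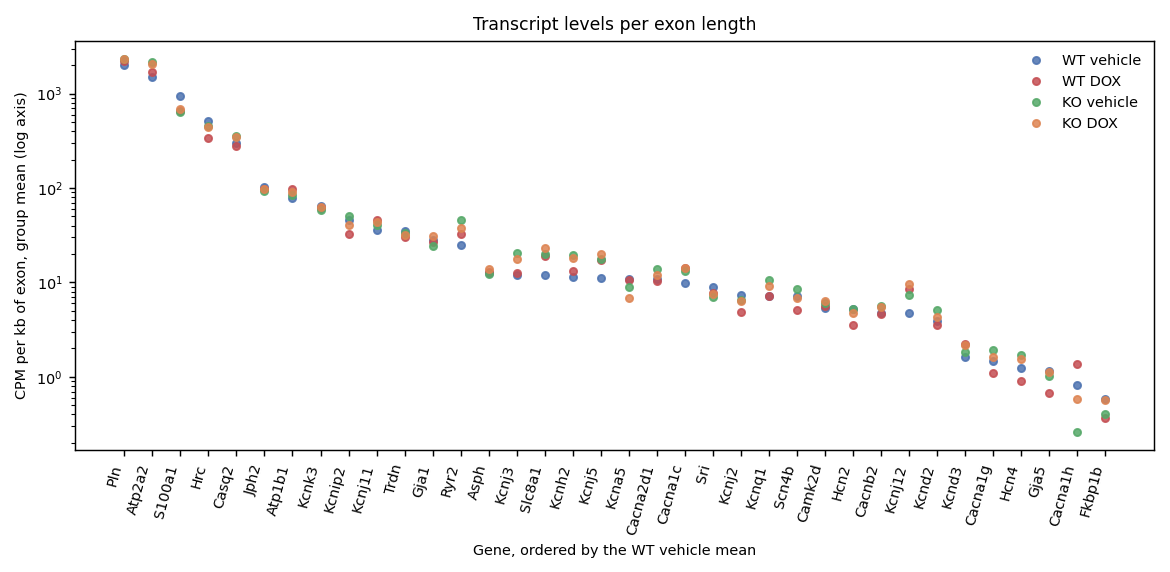
Group mean transcript level of each gene in CPM per kb of exon (log axis), with genes ordered by their WT vehicle mean from Pln (2021) to Fkbp1b (0.577). Points of 1 gene in the 4 groups lie close together compared with the range between genes.

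The 5 comparisons were 4 between groups and the interaction, which took the DOX effect in KO-labelled mice less that in WT mice. A gene was called when its adjusted p was below 0.05 in edgeR's quasi-likelihood test, with adjustment over all 14757 genes. This main fit used all 12 libraries and the settings given in the processing section. DOX against vehicle in WT called 7 of the 36 genes, 4 higher and 3 lower, in a comparison that called 18.6% of all genes tested (9.39% higher and 9.2% lower). The share of the 36 genes, about the same as the background, is no result particular to them. The libraries of the groups did not overlap for 14 of the 36, 8 higher and 6 lower, beside 32.6% of all genes (16.8% higher and 15.8% lower), and 16 had an unadjusted p below 0.05, beside 36.1% of all genes. The median log2 fold change of the 36 was -0.06, and that of all genes 0.00.

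Between KO-labelled and WT mice under vehicle, 5 of the 36 genes were called, all higher in the KO-labelled libraries, in a comparison that called 2.88% of all genes (1.79% higher and 1.09% lower). The share of the 36 lay above that background, and no test was made of it. With KO DOX mouse 18 and KO vehicle mouse veh_3394 left out, 1 of the 36 was called higher and 1 lower. Over all genes that fit called 36 higher and 32 lower. The libraries did not overlap for 16 genes, 12 higher and 4 lower, beside 31.3% of all genes (16.5% higher and 14.8% lower), and 14 had an unadjusted p below 0.05, beside 26% of all genes. The median log2 fold change was 0.17 against 0.02 over all genes. This comparison shares the WT vehicle libraries with that of DOX in WT, so a gene low in those 3 libraries reads as higher in both.

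DOX against vehicle in KO-labelled mice called none of the 36 by edgeR's quasi-likelihood test, in a comparison that called 0.0136% of all genes (0.00678% in each direction). By DESeq2 it also called none, beside 24 higher and 42 lower over all genes, and by limma-voom none, beside 27 higher and 61 lower. By edgeR, 2 of the 36 had an unadjusted p below 0.05, beside 5.35% of all genes. The groups' libraries stood apart for 5 genes, 3 higher and 2 lower, beside 16.3% of all genes (8.27% higher and 8.05% lower). The lowest adjusted p was 0.612, that of Kcnj12, and the median log2 fold change was -0.01.

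Between KO-labelled and WT mice under DOX, none of the 36 was called by edgeR's quasi-likelihood test (0.42% of all genes, 0.19% higher and 0.23% lower), 1 by DESeq2 and 4 by limma-voom. Over all genes, DESeq2 called 223 higher and 250 lower, and limma-voom 492 higher and 498 lower. By edgeR, an unadjusted p below 0.05 was found for 9 genes, beside 15.5% of all genes, and the lowest adjusted p was 0.0889, that of Kcnh2. The fold change was above 0 for 30 of the 36, and its median was 0.21 on the log2 scale against 0.01 over all genes. Libraries stood apart for 11 genes, 9 higher and 2 lower, beside 19.6% of all genes (9.86% higher and 9.75% lower). The interaction called none of the 36 (0.21% of all genes, 0.108% higher and 0.102% lower) by edgeR, none by DESeq2 and 6 by limma-voom. Over all genes, DESeq2 called 181 higher and 192 lower for it, and limma-voom 976 higher and 1072 lower. By edgeR, the unadjusted p of the interaction was below 0.05 for 7 genes, beside 16% of all genes, and the lowest adjusted p was 0.232, that of Ryr2. A DOX response that differs between the genotypes was therefore not called for any of the 36 genes in the main fit. With no filter, edgeR called Gja5 higher and Ryr2 lower for the interaction, beside 538 higher and 555 lower over all genes. Without WT DOX mouse 21 it called Hrc and S100a1 higher, beside 260 higher and 255 lower over all genes.

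**Figure D2:**
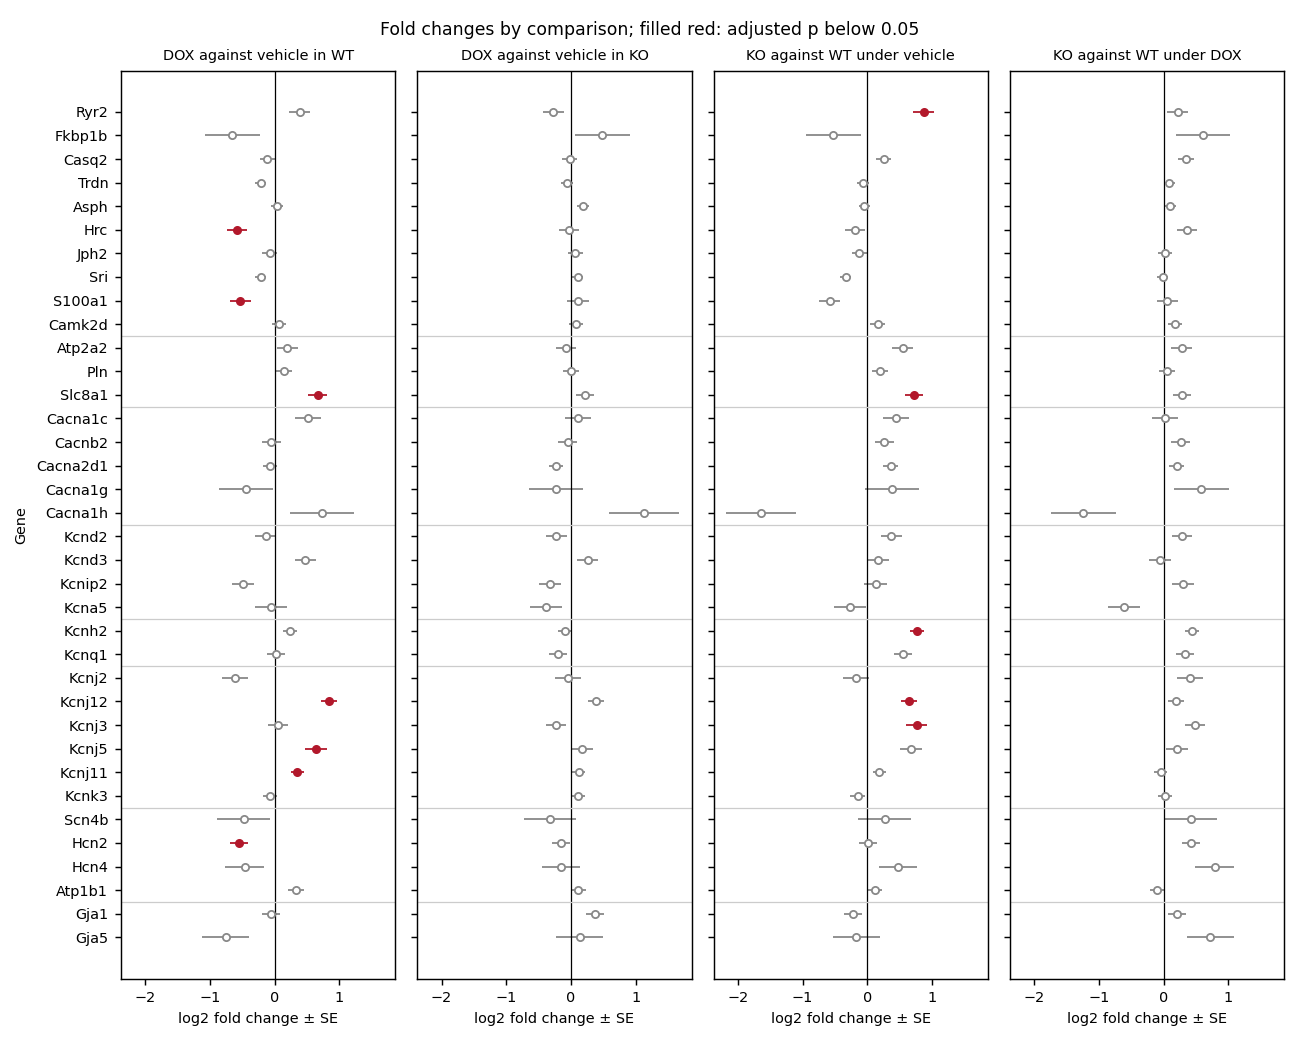
The log2 fold change of each of the 36 genes with its standard error in 4 comparisons; filled red points passed an adjusted p of 0.05. The 7 called in WT under DOX lie on both sides of 0, the 5 called between KO-labelled and WT mice under vehicle all lie above 0, and no point is filled in the other 2 panels.

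**Figure D3:**
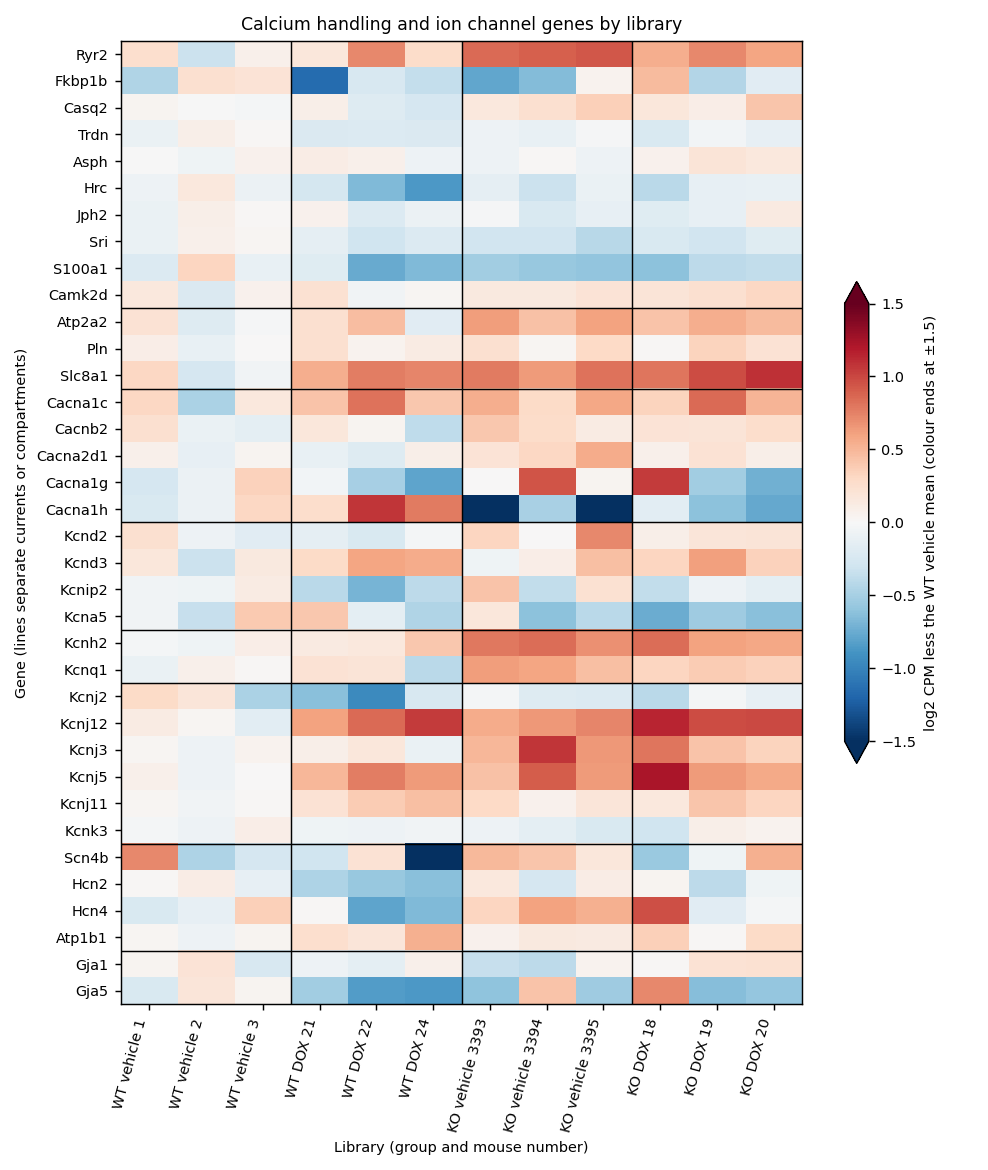
Each library's log2 CPM less the WT vehicle mean for the 36 genes (rows, by current or compartment) and 12 libraries (columns); red is above and blue below, with colour ending at ±1.5. Ryr2, Slc8a1, Kcnh2 and Kcnj12 are above the WT vehicle mean in every KO-labelled library, and libraries KO DOX 18 and KO vehicle veh_3394 stand out for Cacna1g, Gja5 and Kcnj5.

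The 5 genes called under vehicle between the genotypes have promoter windows in RefSeq, shown so that their start regions can be compared. Windows run from 250 bases before to 50 bases after a start site on GRCm38.p6 and are printed in transcript direction. RefSeq gave 32 windows for 28 of the 36 genes. Capitals mark a GATA match (AGATAA), the one motif among those searched that occurs in these 5. The Ryr2 window is chr13:12106896-12107195 (minus strand), that of Slc8a1 chr17:81738338-81738637 (minus), that of Kcnh2 chr5:24329542-24329841 (minus), that of Kcnj12 chr11:61065554-61065853 (plus) and that of Kcnj3 chr2:55435720-55436019 (plus). The start sites used for Kcnh2 and Kcnj12 lie 22013 and 43240 bases inside the gene as annotated in GENCODE M21, so these windows belong to internal starts.
Ryr2: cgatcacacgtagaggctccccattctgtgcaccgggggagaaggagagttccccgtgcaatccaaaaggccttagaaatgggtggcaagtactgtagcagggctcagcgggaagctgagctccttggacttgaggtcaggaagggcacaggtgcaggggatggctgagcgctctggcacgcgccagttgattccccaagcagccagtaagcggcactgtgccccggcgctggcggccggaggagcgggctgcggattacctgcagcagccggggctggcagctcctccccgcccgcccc
Slc8a1: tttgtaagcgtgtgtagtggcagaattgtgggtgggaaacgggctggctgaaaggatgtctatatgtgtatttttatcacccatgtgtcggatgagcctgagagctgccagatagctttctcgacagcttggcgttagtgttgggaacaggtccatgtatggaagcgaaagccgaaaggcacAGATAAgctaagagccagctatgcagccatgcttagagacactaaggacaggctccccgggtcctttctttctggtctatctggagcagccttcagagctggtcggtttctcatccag
Kcnh2: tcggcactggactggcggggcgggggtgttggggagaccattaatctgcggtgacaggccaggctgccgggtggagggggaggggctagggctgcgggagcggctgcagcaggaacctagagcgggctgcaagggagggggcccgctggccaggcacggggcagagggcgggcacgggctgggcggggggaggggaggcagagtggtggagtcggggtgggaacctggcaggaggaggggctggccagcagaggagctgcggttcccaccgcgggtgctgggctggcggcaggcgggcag
Kcnj12: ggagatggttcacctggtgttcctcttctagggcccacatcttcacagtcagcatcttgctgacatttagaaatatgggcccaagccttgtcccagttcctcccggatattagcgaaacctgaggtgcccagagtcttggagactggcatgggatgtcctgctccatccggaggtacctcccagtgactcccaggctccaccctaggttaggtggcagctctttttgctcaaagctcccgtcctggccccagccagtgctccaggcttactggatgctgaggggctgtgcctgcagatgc
Kcnj3: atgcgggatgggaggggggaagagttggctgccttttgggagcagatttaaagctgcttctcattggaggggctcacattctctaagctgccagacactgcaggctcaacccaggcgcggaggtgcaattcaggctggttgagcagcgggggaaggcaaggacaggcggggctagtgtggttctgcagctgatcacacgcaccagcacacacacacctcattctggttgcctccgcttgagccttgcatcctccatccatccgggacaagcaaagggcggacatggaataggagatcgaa

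The 5 windows differ widely in composition. The Kcnh2 window holds 74.3% G or C and 19 CpG pairs, that of Ryr2 65.3% and 18, that of Kcnj3 57.7% and 10, that of Kcnj12 57% and 4, and that of Slc8a1 50.7% and 9. The median over the windows of the 36 genes was 63.3% G or C, against 52.7% over all 32851 windows of the same length. Motifs were searched on both strands as a description only. The GATA letters AGATAA occur in 3 of the 28 genes (Pln, Slc8a1 and Gja1) and in 11.2% of all windows, and the E-box CACGTG in 1 gene (Kcnj2) and in 7.15%. The TATA box TATAAA occurs in 1 gene (Pln) and in 13.6% of windows, the MEF2 motif in 1 gene (Casq2) and in 3.19%, and the D-box (TTATGTAA or TTACGTAA) in no gene and in 1.06%. A MEF2 match can contain the TATA box letters. No match says only that these letters are not in the window.

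Of the 10 genes of the SR calcium release site and store, Ryr2 rose in KO-labelled hearts under vehicle, and Hrc and S100a1 fell with DOX in WT hearts. Ryr2, the release channel itself (chr13:11553102-12106945, GRCm38), was counted at 850, 571 and 750 CPM in WT vehicle, 801, 1176 and 861 in WT DOX, 1286, 1329 and 1367 in KO vehicle and 1041, 1176 and 1079 in KO DOX. All 3 KO vehicle libraries lay above every WT vehicle library, and the WT DOX libraries overlapped both the WT vehicle and the KO DOX libraries. KO-labelled exceeded WT under vehicle by 0.87 on the log2 scale (SE 0.16), with an adjusted p of 0.0217 by edgeR's quasi-likelihood test. The DOX change was 0.39 (SE 0.16, adjusted p 0.108) in WT and -0.27 (SE 0.16, adjusted p 0.997) in KO-labelled mice, and the difference between those 2 changes was -0.66 (SE 0.23, adjusted p 0.232).

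Hrc, a histidine-rich protein that binds calcium inside the SR (chr7:45335290-45338974), was at 1240, 1464 and 1231 CPM in WT vehicle and 1091, 827 and 721 CPM in WT DOX. In KO-labelled hearts it was at 1189, 1043 and 1224 CPM under vehicle and 989, 1197 and 1209 CPM under DOX. The WT DOX libraries all lay below the WT vehicle libraries, and the KO vehicle and KO DOX libraries overlapped each other. The fall with DOX in WT was -0.58 on the log2 scale (SE 0.15, adjusted p 0.0268 by edgeR's test), and the change in KO-labelled mice was -0.03 (SE 0.15, adjusted p 0.997). With offsets for exon length and GC content the WT value was -0.43, with an adjusted p of 0.0836 in edgeR, and the call was lost, as it was in 4 of the 12 fits that left out 1 library. The cardiomyocyte marker sums of WT DOX also lay below those of WT vehicle, and their part in the falls of Hrc, S100a1 and Hcn2 was not tested.

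S100a1, a calcium sensor that favours SR calcium cycling (chr3:90511034-90514392), was at 566, 815 and 607 CPM in WT vehicle and 575, 388 and 413 CPM in WT DOX. WT DOX mouse 21 lay above WT vehicle mouse 1, so these groups overlapped. KO vehicle stood at 454, 440 and 434 CPM and KO DOX at 428, 496 and 506 CPM, all below the 3 WT vehicle libraries. The fall with DOX in WT was -0.53 (SE 0.16, adjusted p 0.0433 by edgeR's test), and KO-labelled against WT under vehicle gave -0.58 (SE 0.16, adjusted p 0.0652). DESeq2, limma-voom and edgeR with no filter called S100a1 lower between the genotypes under vehicle. The WT DOX value shrank to -0.17 with exon length and GC offsets (adjusted p 0.343 in edgeR), and the call was lost in 9 of the 12 fits that left out 1 library.

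The other 7 genes of this site were not called in any comparison in the main fit. Casq2, the main calcium buffer of the SR, was at 818 ± 21.6 CPM (SD, n = 3) in WT vehicle and 974 ± 67.6 in KO vehicle, with no overlap. Among the junction proteins, Jph2, which tethers the SR to the surface membrane, had group means between 401 and 436 CPM, and Asph, whose products include junctin, between 196 and 224 CPM. Trdn, the triadin anchor of calsequestrin, was at 304, 346 and 330 CPM in WT vehicle and 281, 283 and 280 CPM in WT DOX, without overlap. Its log2 change of -0.22 (SE 0.09) had an adjusted p of 0.10 by edgeR's test, and DESeq2 and limma-voom called it lower. Camk2d, the main cardiac calmodulin kinase, had group means between 121 and 143 CPM. Sri, or sorcin, a modulator of the release channel, had 43.3 ± 2.74 CPM in WT vehicle and 34.3 ± 1.75 CPM in KO vehicle (SD, n = 3), with a log2 difference of -0.33 and an adjusted p of 0.0508 by edgeR's test. With exon length and GC offsets or with DESeq2's size factors, edgeR called Sri lower in that comparison. Fkbp1b, the release channel's binding partner, stayed between 0.216 and 0.827 CPM, too few reads for a useful comparison.

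Of the 3 genes that clear calcium, Slc8a1 was called higher both with DOX in WT hearts and in KO-labelled hearts under vehicle. Slc8a1, the sodium-calcium exchanger (chr17:81373105-81738377), was at 277, 187 and 215 CPM in WT vehicle, 326, 379 and 369 in WT DOX, 384, 346 and 393 in KO vehicle and 389, 441 and 478 in KO DOX. The 3 WT vehicle libraries were the lowest of the 12. The rise with DOX in WT was 0.66 on the log2 scale (SE 0.14, adjusted p 0.0165), and KO-labelled exceeded WT under vehicle by 0.73 (SE 0.14, adjusted p 0.0258), both by edgeR's quasi-likelihood test. With exon length and GC offsets these values were 0.36 (adjusted p 0.0816) and 0.45 (adjusted p 0.0717) in edgeR, and both calls were lost. In KO-labelled mice the change with DOX was 0.22 (SE 0.14, adjusted p 0.997).

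Atp2a2, the SERCA pump that refills the SR, was at 10453, 7875 and 8877 CPM in WT vehicle, 10678, 12426 and 8036 in WT DOX, 13855, 12236 and 13658 in KO vehicle and 12159, 13113 and 12467 in KO DOX. All KO vehicle libraries lay above all WT vehicle libraries, and the difference of 0.55 (SE 0.16) had an adjusted p of 0.0691 by edgeR's test. DESeq2, limma-voom and edgeR with no filter called Atp2a2 higher in that comparison. With exon length and GC offsets its adjusted p was 0.128 in edgeR. Pln, which restrains that pump, was at 5978, 5152 and 5600 CPM in WT vehicle, 6584, 5793 and 6061 in WT DOX, 6588, 5675 and 6829 in KO vehicle and 5615, 7026 and 6466 in KO DOX. These ranges overlapped in every comparison. The fold changes of Pln in the 4 comparisons between groups lay between 0.00 and 0.19 on the log2 scale, with adjusted p of at least 0.344 by edgeR's test.

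None of the 5 calcium channel genes was called in the main fit. With no filter, edgeR called Cacna1c, Cacna1g and Cacna1h in at least 1 comparison. For DOX in WT, limma-voom called Cacna1c higher, and under vehicle between the genotypes it called Cacna1c, Cacna2d1 and Cacnb2 higher and Cacna1h lower, of which DESeq2 called Cacna2d1. Cacna1c, the pore of the L-type channel that triggers SR release, was at 253, 147 and 228 CPM in WT vehicle, 273, 357 and 270 in WT DOX, 297, 248 and 305 in KO vehicle and 256, 367 and 291 in KO DOX. The WT DOX libraries lay above the WT vehicle libraries, and the log2 difference of 0.52 (SE 0.20) had an adjusted p of 0.0835 by edgeR's test. Its accessory subunit Cacna2d1 was at 135 ± 9.79 CPM in WT vehicle and 174 ± 22.5 CPM in KO vehicle (SD, n = 3), without overlap and with an adjusted p of 0.0823 in edgeR. The β subunit Cacnb2 had group means between 60.7 and 75.3 CPM.

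The T-type channel Cacna1h (chr17:25374285-25433783) was the widest spread of the 36 genes within groups, and its values are told because of that, after they were seen. It was at 6.81, 7.53 and 9.92 CPM in WT vehicle, 9.63, 16.9 and 13.7 in WT DOX, 0.570, 5.70 and 1.45 in KO vehicle and 7.17, 5.20 and 4.66 in KO DOX. Under either treatment every KO-labelled library lay below every WT library. Under vehicle the log2 difference was -1.64 (SE 0.54, adjusted p 0.0905 by edgeR's test), and with DOX it was -1.24 (SE 0.51, adjusted p 0.267). Without KO DOX mouse 18 and KO vehicle mouse veh_3394 the vehicle value was -3.03, with an adjusted p of 0.0072 in edgeR.

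Both delayed rectifier genes had KO-labelled libraries above the WT libraries within each treatment, and Kcnh2 was called higher under vehicle. Kcnh2, the ERG channel that carries the rapid delayed rectifier current (chr5:24319589-24351604), was at 53.7, 52.2 and 58.7 CPM in WT vehicle, 60.1, 61.3 and 72.6 in WT DOX, 94.5, 98.3 and 87.9 in KO vehicle and 98.2, 83.4 and 81.9 in KO DOX. All 6 KO-labelled libraries lay above all 6 WT libraries. The rise under vehicle was 0.77 on the log2 scale (SE 0.11, adjusted p 0.00483 by edgeR's quasi-likelihood test), and the call was kept in all 12 fits that left out 1 library and under all 9 other alternatives. Under DOX the difference was 0.44 (SE 0.11, adjusted p 0.0889). The effect of DOX was 0.24 (SE 0.11, adjusted p 0.128) in WT and -0.09 (SE 0.11, adjusted p 0.997) in KO-labelled mice.

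Kcnq1, the pore of the slow delayed rectifier, was not called in the main fit and had 29.3 ± 1.89 CPM in WT vehicle, 29.7 ± 6.71 in WT DOX, 43.0 ± 2.56 in KO vehicle and 37.3 ± 0.696 in KO DOX (SD, n = 3). Its KO-labelled libraries stood above the WT libraries within each treatment. The log2 difference under vehicle was 0.56 (SE 0.14), with an adjusted p of 0.0508 by edgeR's test, and DESeq2 and limma-voom called Kcnq1 higher. So did edgeR with no filter, with exon length and GC offsets and under some other alternatives.

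The inward rectifiers held 4 of the called genes. Kcnj12, a Kir2 channel that helps set the resting voltage (chr11:61022564-61071131), was at 14.2, 13.2 and 11.6 CPM in WT vehicle, 19.7, 23.3 and 26.9 in WT DOX, 19.1, 20.3 and 21.6 in KO vehicle and 28.7, 25.6 and 25.7 in KO DOX. The WT vehicle libraries were the 3 lowest, and in each genotype all DOX libraries lay above the vehicle libraries. The rise with DOX in WT was 0.84 (SE 0.12, adjusted p 0.00887 by edgeR's quasi-likelihood test) and was kept in all 12 fits without 1 library. The value in KO-labelled mice was 0.39 (SE 0.12, adjusted p 0.612), and the difference between the genotypes' DOX effects was -0.45 (SE 0.17, adjusted p 0.263). KO-labelled exceeded WT under vehicle by 0.65 (SE 0.13, adjusted p 0.0258). That call was lost in 5 of the 12 fits without 1 library, with adjusted p up to 0.111, and without KO DOX mouse 18 and KO vehicle mouse veh_3394 (adjusted p 0.102 in edgeR).

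Kcnj2, the other Kir2 gene here, did not follow it, with 40.4 ± 10.6 CPM in WT vehicle and 26.3 ± 6.5 CPM in WT DOX (SD, n = 3). Its log2 change of -0.62 (SE 0.20) had an adjusted p of 0.0521 by edgeR's test, and the libraries overlapped. DESeq2 called Kcnj2 lower, as did edgeR with no filter or with exon length and GC offsets, and limma-voom did not.

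Kcnj3 and Kcnj5 encode the GIRK channel subunits that carry the acetylcholine-activated potassium current of atrial and nodal cells. Kcnj3 (chr2:55435970-55598145) was at 64.1, 60.0 and 65.2 CPM in WT vehicle, 67.2, 70.9 and 58.7 in WT DOX, 88.8, 133 and 99.0 in KO vehicle and 110, 85.1 and 79.3 in KO DOX. Every KO-labelled library lay above every WT library. The rise under vehicle was 0.76 (SE 0.16, adjusted p 0.0302 by edgeR's test), and that under DOX 0.48 (SE 0.16, adjusted p 0.183). Without KO DOX mouse 18 and KO vehicle mouse veh_3394, the highest 2 libraries, the vehicle value was 0.56 with an adjusted p of 0.0779.

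Kcnj5 (chr9:32314707-32344350) was at 54.3, 48.9 and 51.9 CPM in WT vehicle, 72.8, 88.1 and 80.8 in WT DOX, 70.2, 97.0 and 80.4 in KO vehicle and 121, 80.3 and 76.6 in KO DOX. The 3 WT vehicle libraries were the lowest of the 12. The rise with DOX in WT was 0.64 (SE 0.17, adjusted p 0.0271 by edgeR's test), and KO-labelled against WT under vehicle gave 0.67 (SE 0.17, adjusted p 0.0517). DESeq2, limma-voom and edgeR with no filter or with exon length and GC offsets called that genotype difference. Without KO DOX mouse 18 and KO vehicle mouse veh_3394 its adjusted p was 0.0958 in edgeR. The call with DOX was lost in 4 of the 12 fits without 1 library, with a fit of only the 2 groups compared and with a covariate for the suffix 1 that some library titles carry after their first number, with adjusted p up to 0.0970 in edgeR.

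Kcnj11, the pore of the ATP-sensitive potassium channel that opens when energy runs low (chr7:46093953-46100764), was at 134, 127 and 133 CPM in WT vehicle and 152, 171 and 180 CPM in WT DOX, without overlap. KO vehicle was at 162, 137 and 149 CPM and KO DOX at 147, 176 and 165 CPM, which overlapped. The rise with DOX in WT was 0.35 (SE 0.10, adjusted p 0.0360 by edgeR's test), and the value in KO-labelled mice 0.12 (SE 0.10, adjusted p 0.997). The call was lost in 6 of the 12 fits without 1 library, with adjusted p up to 0.129, and with no filter, with the fit of the 2 groups and with the title suffix as a covariate, with adjusted p up to 0.125 in edgeR. Kcnk3, the background channel TASK-1, had group means between 233 and 258 CPM.

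The 4 genes of the transient outward and ultrarapid currents were not called in the main fit. With no filter, edgeR called Kcnd3 higher and Kcnip2 lower with DOX in WT, and Kcna5 lower between the genotypes under DOX. DESeq2 and limma-voom both called Kcnd3 higher and Kcnip2 lower with DOX in WT, and limma-voom called Kcnd2 higher and Kcna5 lower between the genotypes under vehicle. Kcnip2, the KChIP2 subunit of the transient outward channel, was at 161 ± 11.8 CPM in WT vehicle and 115 ± 13.1 CPM in WT DOX (SD, n = 3), without overlap, and its log2 change of -0.49 had an adjusted p of 0.0642 by edgeR's test. Kcnd3, a pore subunit of that current, was at 15.6 ± 2.87 and 21.6 ± 2.41 CPM in the same groups, also apart (log2 change 0.47, adjusted p 0.0640 by edgeR's test). Kcnd2, its partner, had group means between 18.3 and 26.1 CPM. Kcna5, the ultrarapid channel, was at 30.2 ± 9.44 CPM in WT DOX and 19.7 ± 1.44 CPM in KO DOX.

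Among the pacemaker, sodium channel and sodium pump genes, Hcn2 fell with DOX in WT hearts. Hcn2, a pacemaker channel also present in working muscle (chr10:79716634-79736108), was at 16.7, 17.8 and 15.2 CPM in WT vehicle, 12.0, 11.1 and 10.7 in WT DOX, 18.4, 13.9 and 17.9 in KO vehicle and 16.9, 12.6 and 15.8 in KO DOX. The 3 WT DOX libraries were the lowest of the 12. The fall was -0.56 on the log2 scale (SE 0.14, adjusted p 0.0235 by edgeR's test), and in KO-labelled mice the value was -0.15 (SE 0.14, adjusted p 0.997). With exon length and GC offsets the WT value was -0.32 (adjusted p 0.173 in edgeR), and the call was lost.

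Hcn4, the main channel of the sinus node, was at 6.32, 6.80 and 9.52 CPM in WT vehicle, 7.55, 4.26 and 4.66 in WT DOX, 9.31, 11.3 and 10.8 in KO vehicle and 14.5, 6.59 and 7.28 in KO DOX. All 4 comparisons overlapped, and the largest log2 difference, KO-labelled against WT under DOX, was 0.79 (SE 0.30, adjusted p 0.238 by edgeR's test). Without KO DOX mouse 18 and KO vehicle mouse veh_3394 it was 0.34. Scn4b, a sodium channel β subunit, ranged from 11.2 to 54.5 CPM within the WT libraries alone. Atp1b1, the β subunit of the sodium pump, was at 241 ± 11.0 CPM in WT vehicle and 303 ± 40.7 CPM in WT DOX (SD, n = 3), apart, with an adjusted p of 0.0658 in edgeR. DESeq2 and limma-voom called Atp1b1 higher in that comparison.

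Neither gap junction gene was called in the main fit. With no filter, edgeR called Gja5 lower for DOX in WT and higher for genotype under DOX and for the interaction. Gja1, connexin 43 of working muscle, was at 294, 328 and 241 CPM in WT vehicle, 272, 258 and 300 in WT DOX, 225, 218 and 297 in KO vehicle and 289, 333 and 335 in KO DOX. The groups overlapped in every comparison. Gja5, connexin 40 of atrium and conduction system, was at 5.57, 7.43 and 6.71 CPM in WT vehicle, 4.53, 3.60 and 3.54 in WT DOX, 4.26, 8.79 and 4.48 in KO vehicle and 10.8, 4.17 and 4.35 in KO DOX. The WT DOX libraries lay below the WT vehicle libraries, and the log2 change of -0.76 (SE 0.36) had an adjusted p of 0.153 by edgeR's test. Without KO DOX mouse 18 and KO vehicle mouse veh_3394 the same change had an adjusted p of 0.0273.

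**Figure D4:**
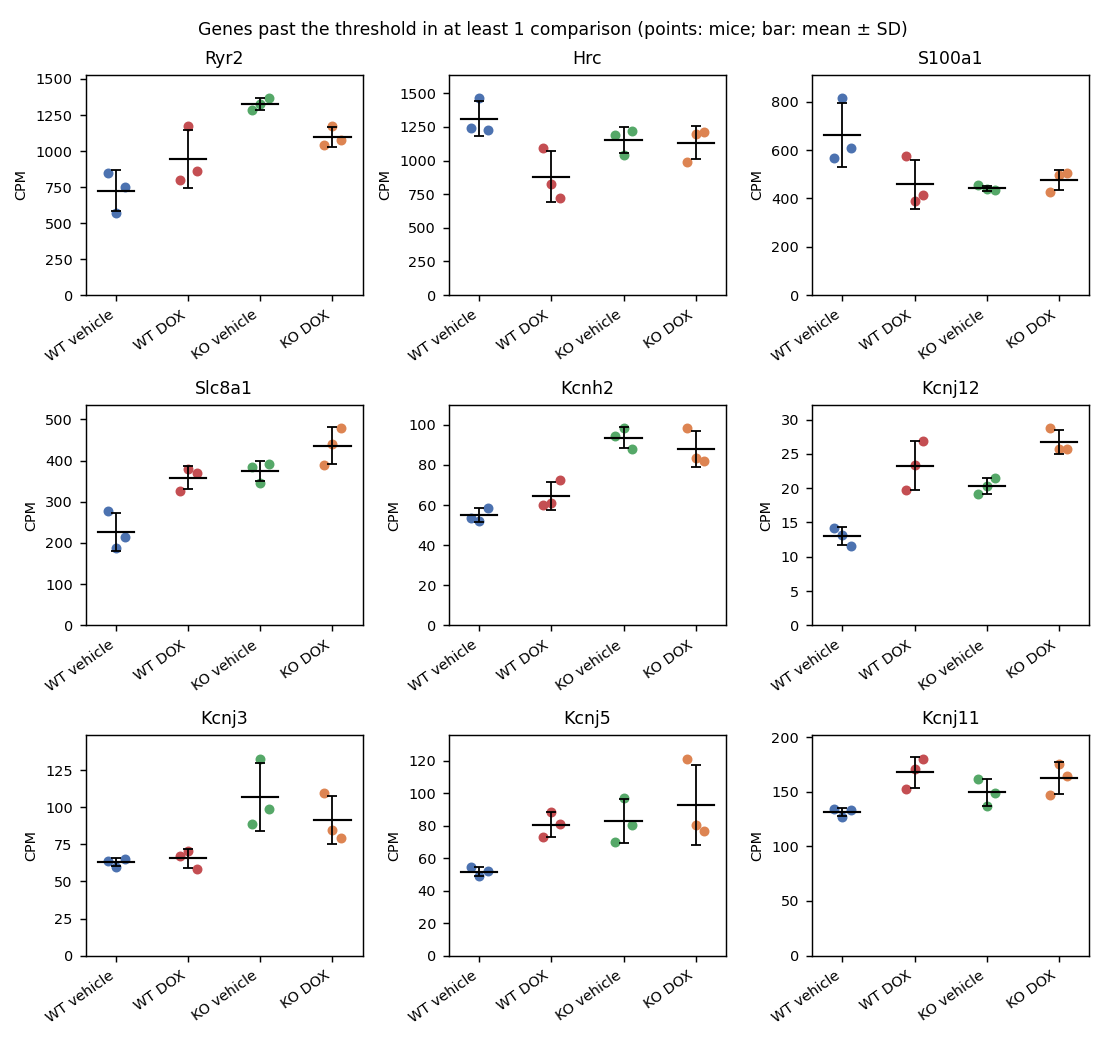
CPM by mouse in the 4 groups for the genes called in at least 1 comparison other than Hcn2, with the mean and SD (n = 3) drawn as bars. The WT vehicle points lie lowest for Slc8a1, Kcnj12 and Kcnj5, and the KO-labelled points lie above all WT points for Kcnh2 and Kcnj3.

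A pair of KO-labelled libraries stood apart in transcripts of the atrium and in some of the node and conduction system, and with them several channel genes. The 9 atrial markers, of which 7 passed the filter, summed to 2342 CPM in KO vehicle mouse veh_3394 and 1758 CPM in KO DOX mouse 18. In the other 10 libraries the sum lay between 83.3 CPM and 280 CPM. The ranges were 101 to 123 CPM in WT vehicle, 83.3 to 237 in WT DOX, 101 to 2342 in KO vehicle and 233 to 1758 in KO DOX. Myl7, the atrial myosin light chain, was at 542 and 543 CPM in those 2 libraries and at most 14.0 CPM elsewhere. Bmp10 was counted at 0 in 6 libraries, Clec3a in 8, and Sln in 3. Not all of the list followed Myl7. Bmp10 was at 0.0377 CPM in KO vehicle mouse veh_3394, 0 CPM in KO DOX mouse 18 and up to 0.366 CPM elsewhere. Nr2f1 was at 3.89 and 2.56 CPM in those libraries and 1.24 to 2.87 CPM elsewhere. The 7 nodal and conduction markers, Hcn4 and Gja5 among them, summed to 64.6 CPM in KO vehicle mouse veh_3394 and 73.7 CPM in KO DOX mouse 18. Elsewhere this sum lay between 22.1 and 38.6 CPM. Of this list, Cntn2 was at 24.5 and 28.8 CPM in the pair and at most 7.04 CPM elsewhere. Tbx3 did not follow, at 16.3 and 14.0 CPM in the pair and 10.7 to 19.4 CPM elsewhere.

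The same 2 libraries were the highest of the 12 for Cacna1g, Gja5, Hcn4, Kcnj5 and Kcnj3. Cacna1g, a T-type channel of nodal and atrial cells told after its values were seen, was at 28.3 CPM in KO vehicle mouse veh_3394 and 30.4 CPM in KO DOX mouse 18, against 8.47 to 18.7 CPM in the other libraries. The part of atrial or nodal tissue in the values of these 5 genes was not tested beyond the fits without the pair. Of the 36 genes, only Kcnh2 was called higher in those fits, and Cacna1h lower, between KO-labelled and WT mice under vehicle. Over all genes, 36 were called higher and 32 lower. Under vehicle the values of Ryr2 (0.86), Slc8a1 (0.77) and Kcnj12 (0.64) were then close to those with all libraries, with adjusted p of 0.0958, 0.0779 and 0.102 in edgeR.

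**Figure D5:**
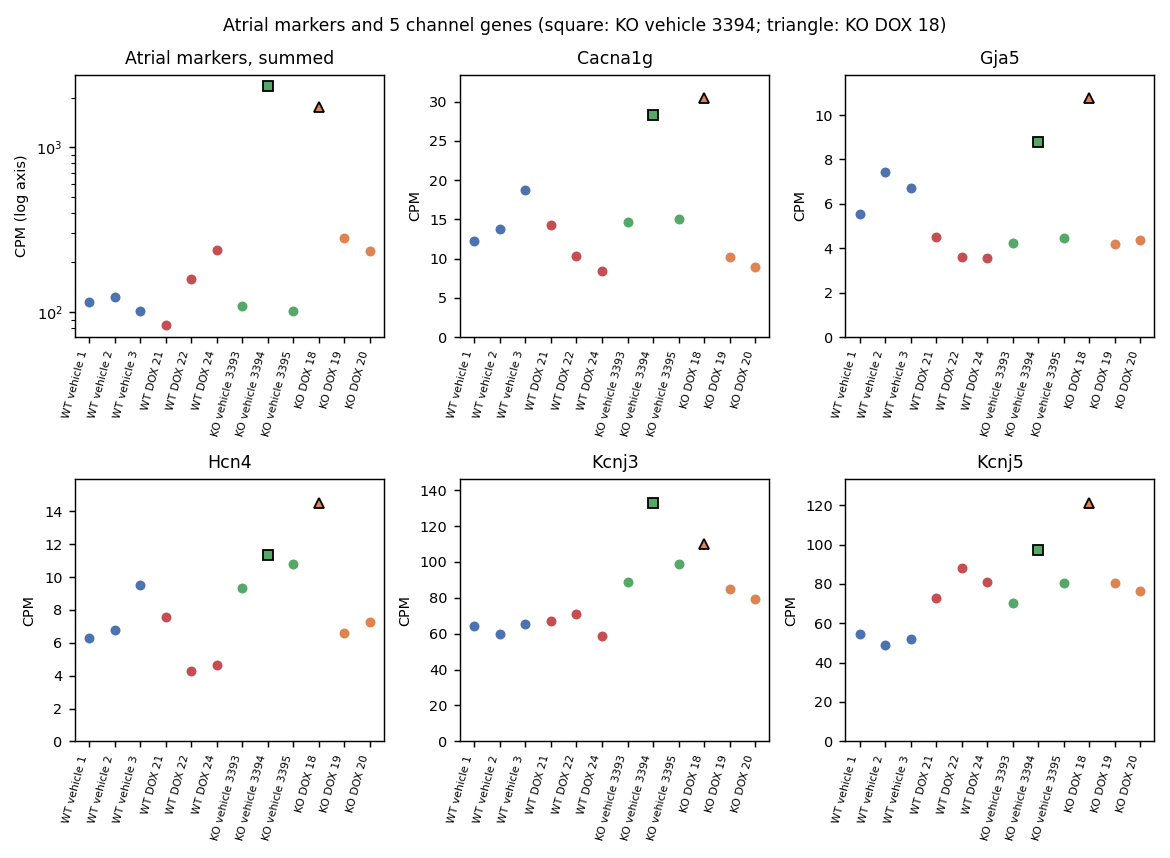
CPM by library for the atrial marker sum (log axis) and 5 channel genes, with KO vehicle mouse veh_3394 as a square and KO DOX 18 as a triangle. These 2 libraries hold the highest marker sums (2342 and 1758) and the 2 highest values of each of the 5 genes.

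Other marker lists moved with the groups too. The 7 endothelial markers summed to 1544 to 1592 CPM in WT vehicle, 829 to 1019 in WT DOX, 928 to 1000 in KO vehicle and 860 to 1121 in KO DOX, and none of them was at 0. The WT vehicle libraries were thus the highest for this list, and they were the lowest for Slc8a1, Kcnj12 and Kcnj5. The 4 ventricular markers summed to 17371 to 23817 CPM in WT vehicle, 9592 to 17285 in WT DOX, 12300 to 14275 in KO vehicle and 12650 to 15238 in KO DOX. Myl2 and Myl3 made up most of that sum, and 1 of the 4 was called lower with DOX in WT. Irx4 did not follow, at 25.7, 31.5 and 25.2 CPM in WT vehicle and 27.3, 23.8 and 27.2 CPM in WT DOX. Hey2 was at 4.54, 4.63 and 4.01 CPM and 3.34, 4.15 and 5.64 CPM in the same groups. The 5 neutrophil markers, all called higher with DOX in WT, summed to 2.00 to 3.45 CPM in WT vehicle, 8.63 to 36.6 in WT DOX, 6.78 to 10.3 in KO vehicle and 3.94 to 5.55 in KO DOX. For the interaction the main fit called 3 of these 5 lower, beside 0.102% of all genes. The 5 erythroid markers, all called lower with DOX in WT, summed to 50.8 to 172 CPM in WT vehicle, 0.144 to 0.395 in WT DOX, 46.5 to 253 in KO vehicle and 0.709 to 213 in KO DOX. Of the 6 genes listed as skeletal muscle markers, 3 passed the filter, and 1 of these was called lower with DOX in WT. The 6 summed to 2272 to 2951 CPM in WT vehicle, 919 to 1612 in WT DOX, 2126 to 2682 in KO vehicle and 1774 to 1902 in KO DOX. Ckm made up most of that sum, at 2052, 2744 and 2161 CPM in WT vehicle. Myh1, Myh2 and Myh4 were at most 0.128 CPM in any library. The part of these lists in the results was not tested.

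Calls that rest on the WT vehicle group depended on single mice. For DOX in WT, the main fit called 1386 higher and 1357 lower over all genes. Without WT vehicle mouse 2, of the genes followed here only Kcnj12 was called (247 higher and 266 lower over all genes). The same held without WT DOX mouse 22 (101 higher and 84 lower over all genes) or mouse 24 (104 and 79). Without WT vehicle mouse 3 this comparison called Kcnj12 higher and Hcn2 and Kcnj2 lower (313 and 429 over all genes). Some fits of KO-labelled against WT mice under vehicle called only Kcnh2 higher among the genes followed here. They were those without WT vehicle mouse 2 or 3 or without any 1 of the KO vehicle mice. Over all genes, higher then lower, they called 51 and 58 without WT vehicle mouse 2 and 28 and 23 without mouse 3. They called 28 and 14 without KO vehicle mouse veh_3393, 32 and 20 without veh_3394 and 29 and 16 without veh_3395. The main fit called 264 and 161, so calls became fewer over all genes too. Without WT vehicle mouse 1 more of the genes followed here were called, 11 for DOX in WT and 10 for the genotypes under vehicle. Over all genes that fit called 2186 higher and 2002 lower for DOX in WT, and 1395 higher and 1275 lower for the genotypes.

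A further 98 genes of the same pathways were listed by name, of which 92 passed the filter. With DOX in WT, 9 of the 92 rose and 11 fell, beside 9.39% and 9.2% of all genes, shares near the background that are no result about the list. Their median log2 fold change was -0.08, against 0.00 over all genes.

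Fxyd1, the phospholemman regulator of the sodium pump, fell by 0.60 on the log2 scale with DOX in WT (adjusted p 0.0232 by edgeR's test). Among the genes that rose were Tmem38b (1.03), a counter-ion channel of the SR, Akap7 (0.43), an anchor of protein kinase A, and Kcnt1 (2.13), a sodium-activated potassium channel at under 3 CPM. Trpm4 (-0.64), a calcium-activated cation channel, Kcnj8 (-0.61), the KATP pore of vascular muscle, and Slc8b1 (-0.56), the mitochondrial sodium-calcium exchanger, fell. Kcnj8 is also on the list of 7 smooth muscle and pericyte markers, which summed to 832 to 955 CPM in WT vehicle and 652 to 805 CPM in WT DOX; the part of those cells was not tested.

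Between KO-labelled and WT mice under vehicle, 2 of the 92 rose and 1 fell, beside 1.79% and 1.09% of all genes, which again is near the background. Camk2a rose by 0.59 on the log2 scale (adjusted p 0.0389 by edgeR's test), and Rem1, a small GTPase that inhibits L-type channels, had a log2 difference of -0.81 (adjusted p 0.0444). None of the 92 was called for DOX in KO-labelled mice, for genotype under DOX or for the interaction by edgeR (0.0136%, 0.42% and 0.21% of all genes). An unadjusted p below 0.05 was found for 7, 19 and 20 of them, beside 5.35%, 15.5% and 16% of all genes. Sln, the atrial SERCA inhibitor sarcolipin, was at 110 CPM in KO vehicle mouse veh_3394 and 80.1 CPM in KO DOX mouse 18 and at most 2.63 CPM in the others. Kcne1, the partner of Kcnq1, had 6.32 ± 2.80 CPM in WT vehicle and 2.76 ± 0.300 CPM in KO vehicle (SD, n = 3), with an adjusted p of 0.172 in edgeR.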

How the data were processed

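The authors deposited a file of raw read counts for every library, with whole numbers listed by gene symbol. STAR 2.7.0f, fastp 0.20.0, Subread 1.6.4 and featureCounts are named in the tool list, per the submitters' processing notes. Build, annotation, strand setting and treatment of multi-mapping reads were not given in the sources used here, so counts of overlapping or closely related genes are uncertain. Library kits were stranded, per the labels' protocols.

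Counts were analysed in R 4.3.3. Genes were filtered with filterByExpr by group, scaled with TMM and tested with edgeR 4.0.16's quasi-likelihood F test, with 1 mean per group over all 12 libraries, Benjamini-Hochberg adjustment and a threshold of 0.05. The F statistic and the fold change gave the SE. CPM used TMM-scaled totals; log2 CPM for the heat map used a prior count of 2. Libraries of a group differed by a chi-square of 8.32 to 163 per gene, so no library was a copy. The highest values were those of WT vehicle mouse 2 against mouse 1 (163) and mouse 3 (97.6). WT vehicle mice 1 and 3 differed by 18.5. The biological coefficient of variation was 17.5%. Positions come from GENCODE M21 on GRCm38, promoter windows from RefSeq (GRCm38.p6), matched by symbol. Scripts were tested on simulated data.

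Genes told mouse by mouse were those called in any comparison and 10 chosen by name, the rest by ranges; of the pathway list, up to 5 called per comparison and direction and 5 chosen by name. A few of the pathway genes this rule names are left out of the text. The members and lists were chosen with earlier results of these data known. Alternatives used DESeq2 1.42.0 and limma 3.58.1. P-values measure the spread between mice as numbered in the titles.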

Additional observations from a re-analysis of the deposited data

How the results depend on the processing

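No called value changed sign under any alternative, while 85 of 2857 uncalled values of single genes did. Of 252 calls of the 36 genes under the alternatives, 177 were kept. Kcnh2 between genotypes under vehicle was kept under all of them, and Kcnj12 with DOX in WT under all but the fit of the 2 groups compared. The counts, higher then lower, were 4 and 3 for DOX in WT, 0 and 0 for DOX in KO-labelled mice, 5 and 0 for genotype under vehicle, and 0 and 0 for genotype under DOX and for the interaction.

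For DOX in WT, higher calls were 8 with limma-voom and quality weights, 0 with the fit of the 2 groups and 2 with the title suffix as a covariate; lower calls were 8 with no filter, 6 with DESeq2, 7 with limma-voom and 0 with the fit of the 2 groups. For DOX in KO-labelled mice, no filter gave 1 higher (Cacna1h). For genotype under vehicle, higher calls were 9 with no filter, 9 with DESeq2, 13 with limma-voom and 1 without KO DOX mouse 18 and KO vehicle mouse veh_3394; lower calls were 1 with DESeq2's size factors (Sri), 2 with no filter, 2 with DESeq2, 5 with limma-voom, 1 with exon length and GC offsets (Sri) and 1 without that pair (Cacna1h). For genotype under DOX, higher calls were 5 with no filter, 1 with DESeq2 and 3 with limma-voom, and lower calls 2 with no filter and 1 with limma-voom. For the interaction, no filter gave 1 higher and 1 lower, and limma-voom 3 higher and 3 lower. The counts over all genes shifted too. For DOX in WT, higher then lower, they were 2940 and 2635 with limma-voom, 1737 and 1720 with DESeq2, and 1703 and 1778 with no filter. With the fit of the 2 groups they were 6 and 14. For genotype under vehicle they were 2774 and 2412 with limma-voom, 793 and 889 with DESeq2, and 1080 and 1008 with no filter. For genotype under DOX, no filter gave 611 and 541. The cause of these shifts was not tested.

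Leaving out 1 library at a time gave 1 to 7 higher and 0 to 4 lower for DOX in WT, 0 in both directions for DOX in KO-labelled mice, 1 to 8 higher and 0 to 2 lower for genotype under vehicle, 0 to 2 higher and 0 lower for genotype under DOX, and 0 to 2 higher and 0 lower for the interaction. A group left with 2 libraries was assumed to vary like the others. Over all genes, the count for DOX in WT was 2743 and ranged from 20 to 5575 under the other alternatives (183 to 4188 without 1 library), that for DOX in KO-labelled mice was 2 (0 to 309, and 0 to 4), that for genotype under vehicle 425 (68 to 5186, and 42 to 2670), that for genotype under DOX 62 (5 to 1152, and 8 to 727) and that for the interaction 31 (2 to 2048, and 0 to 515). No paired analysis was possible because the groups share no mouse numbers. With 3 mice a group, small changes in weakly counted genes such as Fkbp1b, Gja5 and Hcn4 may go uncalled.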
